A study of Mus musculus with 18 samples.

Results

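Histone methyltransferases write the marks that keep genes silent or active as cells divide and mature, and they use S-adenosylmethionine, the methyl donor made from methionine. The 10 genes described here encode the core of polycomb repressive complex 2 (Ezh1, Ezh2, Eed and Suz12), large enzymes that methylate histone H3 at lysine 4, written H3K4 (Kmt2a, Kmt2b and Kmt2d), and enzymes that methylate histone H3 at lysine 9, written H3K9 (Setdb1, Ehmt1 and Ehmt2). They were chosen by gene symbol, with earlier results of these data known, and all 10 were found among the 30172 genes listed in each of the 18 RNA-seq files. Every library held at least 1.81 FPKM (fragments scaled to transcript length and library size) of each of them, so all 10 passed the filter on low values at every day.

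The study followed wild-type C57BL/6J females born to dams with hyperhomocysteinemia (HHcy), a raised level of homocysteine in blood. The dams of the F1-HHcy group ate chow with 3% methionine by weight from 4 weeks before mating, by the labels (the study's methods give a longer period), and stayed on it until weaning. Dams of the F1-Control group ate a normal diet, sires in both groups had a normal diet, and the daughters themselves received no treatment. Whole ovaries were taken on postnatal day 3 (Pd3), day 7 (Pd7) or day 21 (Pd21), with 3 libraries in each of the 6 groups. A dam was the treated unit, but the labels do not say which pups shared a dam or whether a library held the ovary of 1 pup, so p-values here measure the spread between these libraries. Pd3 and Pd7 were labelled batch 1 and Pd21 batch 2, and the diets share a batch at every day.

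In polycomb repressive complex 2, EZH1 or EZH2 is the enzyme that adds methyl groups at H3K27, and it works only when bound to EED and SUZ12. Methylation of H3K4 by the KMT2 enzymes marks active promoters and enhancers, whereas methylation of H3K9 by SETDB1 or by the EHMT1 and EHMT2 pair marks silent chromatin and keeps retroelements off. In the ovary these marks are laid down in oocytes while they grow, and EZH2 is also typical of dividing somatic cells such as granulosa cells.

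The members lie on 8 chromosomes of GRCm38 by the GENCODE M21 annotation. Ezh1 (chromosome 11, 101191115 to 101226463, minus strand) and Suz12 (chromosome 11, 79993106 to 80034123, plus strand) share a chromosome, as do Eed (chromosome 7, 89954654 to 89980983, minus strand) and Kmt2b (chromosome 7, 30568858 to 30588726, minus strand). Ezh2 spans chromosome 6, 47530139 to 47595341 (minus strand), Kmt2a chromosome 9, 44803355 to 44881296 (minus strand), and Kmt2d chromosome 15, 98831669 to 98871204 (minus strand). Setdb1 spans chromosome 3, 95323525 to 95357202 (minus strand), Ehmt1 chromosome 2, 24789928 to 24919614 (minus strand), and Ehmt2 chromosome 17, 34898469 to 34914052 (plus strand). The transcript lengths that the deposited values imply differ widely between members. They were 23080 bases for Kmt2d, 17793 for Kmt2a and 8974 for Kmt2b, whereas the other members ran from 2060 bases for Eed to 5666 for Ehmt1.

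The promoters of 4 members are shown. They are those of the EZH paralogs, whose ratio is given in every library, and of Kmt2a and Kmt2d, which were called at Pd7. Kmt2b was called with them at Pd7, but no promoter was listed for it, so its sequence is not shown. The sequences are from RefSeq (build GRCm38.p6) and run 5′ to 3′ on the strand of the gene. They cover 250 bases before to 50 bases after the start used for that promoter set. For Ezh2 this start differs from that of the GENCODE span given above, which begins at 47595341 on the minus strand. The whole Ezh2 window, 47594981 to 47595280, lies inside that span. Capitals mark matches on either strand to an E2F pattern, which was TTTCCCGC or TTTGGCGC. They also mark the GC box pattern, which was searched on both strands with the letters GGGCGG. The CCAAT box was searched by the letters in its name, and its matches are in capitals as well. A last search, for the core of the promoter box that binds the general transcription machinery, used the letters TATAAA. The E2F and GC box patterns can share bases.
Ezh2, chr6:47594981-47595280, minus strand: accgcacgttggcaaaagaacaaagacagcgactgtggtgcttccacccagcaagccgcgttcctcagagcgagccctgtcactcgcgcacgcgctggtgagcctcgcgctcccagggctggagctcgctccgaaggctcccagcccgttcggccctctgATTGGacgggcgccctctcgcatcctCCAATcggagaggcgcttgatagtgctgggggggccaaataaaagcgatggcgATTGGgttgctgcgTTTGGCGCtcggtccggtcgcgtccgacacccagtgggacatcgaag
Ezh1, chr11:101226414-101226713, minus strand: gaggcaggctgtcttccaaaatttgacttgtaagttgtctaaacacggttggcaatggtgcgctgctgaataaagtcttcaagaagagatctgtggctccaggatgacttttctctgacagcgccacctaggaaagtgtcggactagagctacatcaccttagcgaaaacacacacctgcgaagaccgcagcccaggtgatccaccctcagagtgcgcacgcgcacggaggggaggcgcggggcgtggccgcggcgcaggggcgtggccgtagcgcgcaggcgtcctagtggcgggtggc
Kmt2a, chr9:44881240-44881539, minus strand: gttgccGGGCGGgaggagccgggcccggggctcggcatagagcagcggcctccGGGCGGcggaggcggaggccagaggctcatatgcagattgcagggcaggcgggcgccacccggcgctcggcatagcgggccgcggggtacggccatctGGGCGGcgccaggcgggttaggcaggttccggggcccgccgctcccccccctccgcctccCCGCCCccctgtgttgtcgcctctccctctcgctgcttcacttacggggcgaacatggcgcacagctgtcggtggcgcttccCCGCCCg
Kmt2d, chr15:98871156-98871455, minus strand: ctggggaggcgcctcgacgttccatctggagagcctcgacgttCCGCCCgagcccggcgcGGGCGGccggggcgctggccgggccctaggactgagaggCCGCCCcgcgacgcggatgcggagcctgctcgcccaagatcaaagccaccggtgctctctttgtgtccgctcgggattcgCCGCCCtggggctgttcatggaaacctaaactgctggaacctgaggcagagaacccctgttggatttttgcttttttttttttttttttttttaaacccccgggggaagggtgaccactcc

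The Ezh2 promoter held 1 match to the E2F pattern TTTGGCGC, found in 0.514% of 32851 promoters of the same length, and 3 CCAAT boxes, a pattern found in 37.4% of them. The Ezh1 promoter matched none of the patterns searched. Kmt2a and Kmt2d had neither E2F pattern and no CCAAT box but carried 5 and 4 GC boxes, a pattern found in 35.7% of promoters. The same layout was found in members not called between diets at any day. These were Ehmt1, with 3 GC boxes, and the promoters listed for Ehmt2, with 2 and 4. Of the 10 promoters listed for 9 members, only that of Suz12 matched the other E2F pattern TTTCCCGC (1.07% of promoters), and none held TATAAA (13.6% of promoters). All 10 were rich in CpG dinucleotides, with 15 to 41 each beside a median of 7 over all promoters. These matches describe letters in a window and are not evidence of binding.

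Each library held between 33629172 and 39398054 fragments recovered on genes, and a member had between 1215 and 14293 fragments in a library, which gives a counting error of 0.836% to 2.87% and covers counting only. The 12 oocyte markers and the 8 granulosa markers each had a value above 0 in every group. The markers of every other cell type listed did too, so this does not tell which cells were present. The lowest sum in a library was 1026 FPKM for the oocyte markers and 102 FPKM for the granulosa markers. Summed erythroid markers were 3914 to 11214 FPKM in F1-Control and 780 to 1108 FPKM in F1-HHcy libraries at Pd3. A library stood apart by transcript length. In F1-Control Pd7 replicate 2, genes of at least 8 kb lay 0.89 lower on the log2 scale, relative to genes under 1.5 kb, than on average over the 6 Pd7 libraries, whereas this difference ran from 0.0069 to 0.30 in the other Pd7 libraries.

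Over the 18 libraries the median level per length was highest for Ehmt2 (31.0 FPKM) and Setdb1 (25.6 FPKM). The polycomb genes followed closely together, at 20.9 FPKM for Ezh1, 19.5 for Suz12, 19.3 for Eed and 16.8 for Ezh2, and their ranges overlapped. Ehmt1 (14.3 FPKM), Kmt2b (12.6 FPKM), Kmt2d (9.75 FPKM) and Kmt2a (6.61 FPKM) were the lowest. The order of variability was different. The highest library exceeded the lowest 10.1-fold for Kmt2d, 5.44-fold for Kmt2a and 3.62-fold for Kmt2b, but 2.75-fold for Ezh2, 2.38-fold for Ezh1 and 1.39-fold for Eed, the steadiest of the 10. The remaining members ranged over 1.79-fold to 1.96-fold.

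**Figure D1:**
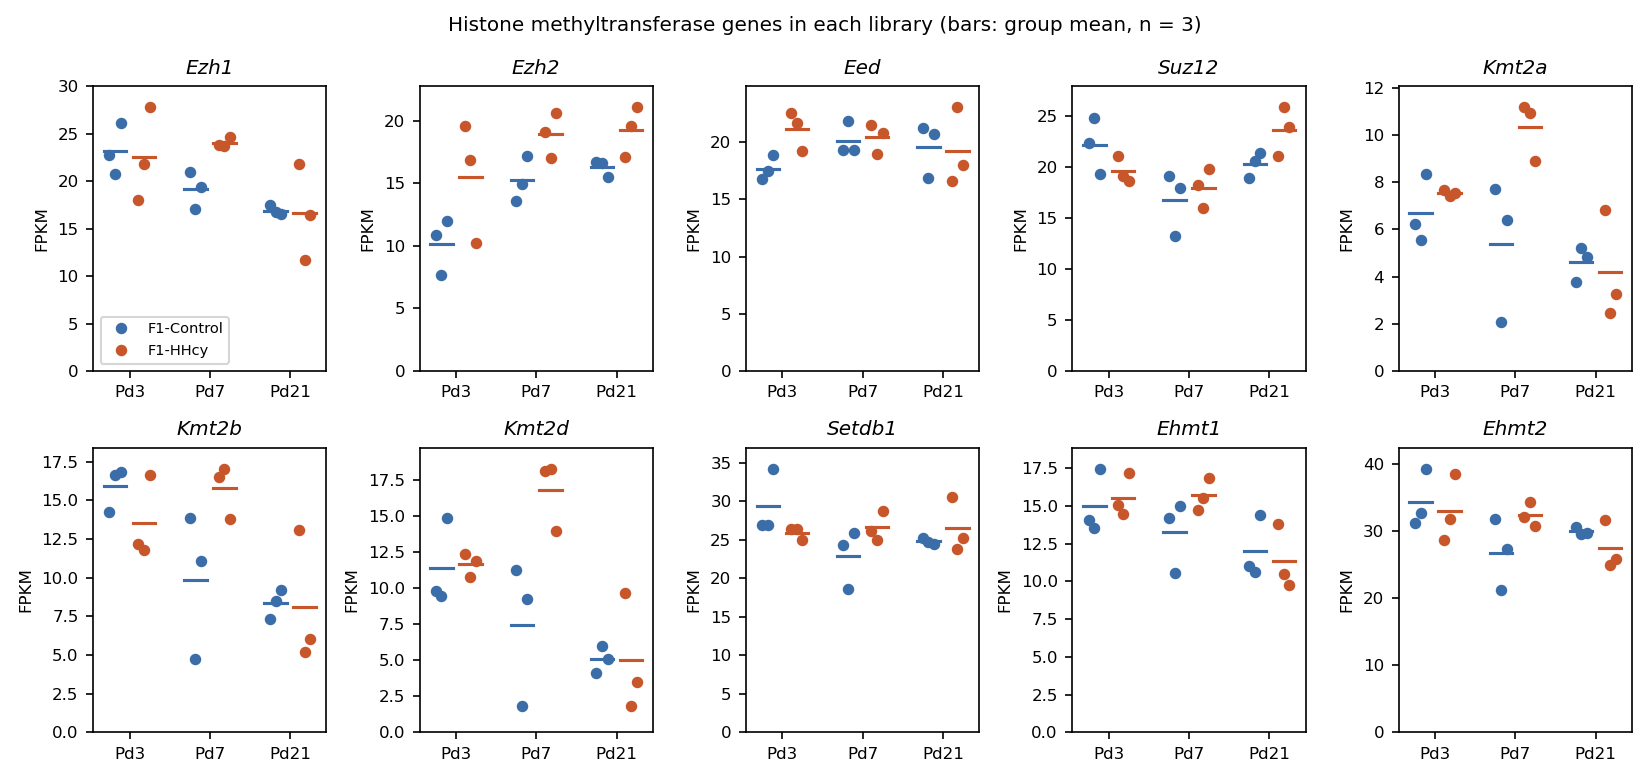
FPKM of each of the 10 genes (y axis, from 0) in the 18 libraries, by postnatal day (x axis) and maternal diet (blue, F1-Control; orange, F1-HHcy); points are libraries and bars are group means (n = 3). Kmt2a, Kmt2b and Kmt2d have their lowest Pd7 value in F1-Control replicate 2, and Eed varies least.

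The first question was whether the maternal diet changed the ovarian level of these genes at each day. The diets were compared with limma on log2(FPKM + 1) over every gene that reached 1 FPKM in 3 or more of that day's 6 libraries. Fold changes are on that scale, which understates the change of low genes, and a positive value is higher in F1-HHcy. The study's criterion was followed, so that being called required a log2 fold change beyond 0.58 in either direction and p, before adjustment, under 0.05. The adjusted p is Benjamini-Hochberg over all genes tested that day.

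At Pd3 none of the 10 genes was called in either direction, beside 9.74% of 13277 tested genes called, of which those called lower made 4.74% of tested genes. None had an adjusted p under 0.05 together with the fold (2.84% of tested genes did), and none had an unadjusted p under 0.05 (22.4% of tested genes did). The members' median log2 fold change was -0.0024, against -0.03 over all tested genes. Separation of the diets without overlap was seen for 1 member upward (Eed) and 1 downward (Setdb1), whereas 11.8% of tested genes lay wholly higher and 16.1% wholly lower.

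Ezh2, the polycomb enzyme typical of dividing cells, showed the greatest difference at Pd3. The F1-Control libraries held 10.9, 7.68 and 12.0 FPKM and the F1-HHcy libraries 19.6, 16.9 and 10.2 FPKM. Replicates 1 and 2 of F1-HHcy lay above every control, and replicate 3 fell among the controls. The log2 fold change was 0.54 (SE 0.25, 95% interval -0.04 to 1.12, adjusted p = 0.250 by limma). The value was 0.36 when F1-HHcy replicate 1 was left out, and it was 0.80, a call, when replicate 3 was (adjusted p = 0.0187). The summed granulosa markers ran in the same order over the F1-HHcy libraries, at 451, 246 and 161 FPKM beside 102 to 103 FPKM in the controls. Summed markers of proliferating cells did too, at 608, 525 and 321 FPKM beside 416 to 483 FPKM in the controls. So did those of theca, at 679, 349 and 71.3 FPKM beside 98.4 to 152 FPKM in the controls. Stroma (1185, 1174 and 909 beside 466 to 646 FPKM) and endothelium (88.8, 73.5 and 62.0 beside 35.4 to 49.2 FPKM) also did. The sums for oocytes, leukocytes, erythroid cells, surface epithelium and oviduct did not run in this order. The part of any of these cell types in the Ezh2 values was not tested, and in whole ovaries fewer cells of a type and less RNA per cell cannot be told apart.

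Ezh1, the paralog found in resting as well as dividing cells, had 22.7, 20.8 and 26.2 FPKM in F1-Control and 17.98, 21.8 and 27.8 FPKM in F1-HHcy. The groups overlapped throughout, with a log2 fold change of -0.06 (SE 0.17). Eed, which binds the methylated histone tail and stimulates the enzyme, had 16.8, 17.5 and 18.9 FPKM in F1-Control and 22.5, 21.7 and 19.2 FPKM in F1-HHcy. All 3 F1-HHcy libraries were above all controls for Eed, but the log2 fold change of 0.24 (SE 0.11) did not pass the test (adjusted p = 0.234 by limma). Suz12, which holds the complex together, had 22.4, 24.8 and 19.3 FPKM in F1-Control and 21.1, 19.1 and 18.6 FPKM in F1-HHcy, with overlap and a log2 fold change of -0.16 (SE 0.12).

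The H3K4 enzymes differed little at Pd3. Kmt2a, known for keeping Hox genes active, had 6.23, 5.53 and 8.36 FPKM in F1-Control and 7.68, 7.41 and 7.56 FPKM in F1-HHcy. Kmt2b, the main enzyme for H3K4 trimethylation in oocytes, had 14.3, 16.7 and 16.8 FPKM in F1-Control and 12.2, 11.8 and 16.6 FPKM in F1-HHcy. Kmt2d, which acts at enhancers, had 9.84, 9.48 and 14.9 FPKM in F1-Control and 12.4, 10.8 and 11.9 FPKM in F1-HHcy. The diets overlapped for all 3, and the log2 fold changes were 0.17 (SE 0.15), -0.23 (SE 0.15) and 0.06 (SE 0.17).

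Among the H3K9 enzymes at Pd3, Setdb1, which trimethylates H3K9 together with the co-repressor TRIM28, had 26.9, 26.9 and 34.2 FPKM in F1-Control and 26.4, 26.3 and 24.9 FPKM in F1-HHcy. Its groups did not overlap, although the gap between them was small beside control replicate 3, and the log2 fold change of -0.17 (SE 0.12) did not pass the test (adjusted p = 0.455 by limma). Ehmt1 (GLP) and Ehmt2 (G9a) act as a dimer that mono- and dimethylates H3K9. Ehmt1 had 13.5 to 17.5 FPKM in F1-Control and 14.4 to 17.2 FPKM in F1-HHcy, and Ehmt2 had 31.3 to 39.3 FPKM and 28.7 to 38.5 FPKM. Neither was apart by diet, with log2 fold changes of 0.05 (SE 0.13) and -0.06 (SE 0.14).

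At Pd7 the 3 H3K4 enzymes, Kmt2a, Kmt2b and Kmt2d, were called higher in F1-HHcy, that is 3 of the 10 members beside 9.06% of 13299 tested genes called higher. No member was called lower (7.35% of tested genes were). None of the 10 passed with the adjusted p (11.1% of tested genes did), 4 had an unadjusted p under 0.05 (31.5% of tested genes did), and all 10 log2 fold changes were above 0. The members' median log2 fold change was 0.29, beside -0.0015 over all tested genes. Those without overlap between diets were Ezh1, Kmt2a and Kmt2d, all higher (19.5% of tested genes lay wholly higher and 19.5% wholly lower).

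Kmt2d had 11.3, 1.81 and 9.30 FPKM in F1-Control and 18.2, 18.3 and 13.98 FPKM in F1-HHcy at Pd7. Every F1-HHcy library was above every control, and control replicate 2 was far below its group. The log2 fold change of Kmt2d was 1.32 (SE 0.45, 95% interval 0.31 to 2.33, adjusted p = 0.0839 by limma). Kmt2a showed the same layout, with 7.72, 2.06 and 6.39 FPKM in F1-Control and 11.2, 10.9 and 8.92 FPKM in F1-HHcy. Its log2 fold change was 0.96 (SE 0.33, 95% interval 0.21 to 1.70, adjusted p = 0.0866 by limma). For Kmt2b, the F1-Control libraries held 13.8, 4.71 and 11.1 FPKM and the F1-HHcy libraries 16.5, 17.0 and 13.8 FPKM, and control replicate 1 lay just above F1-HHcy replicate 3. Its log2 fold change was 0.73 (SE 0.30, 95% interval 0.06 to 1.40, adjusted p = 0.133 by limma).

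These 3 genes are the longest of the members, and their lowest Pd7 value was in the library where long genes were low. Over all tested genes at Pd7, 13.4% of 1703 genes of at least 8 kb were called higher, compared with 8.43% of 11596 shorter genes, and the median log2 fold changes were 0.21 and -0.04. Malat1, an RNA kept in the nucleus and chosen after its values were seen, had 192, 29.4 and 156 FPKM in F1-Control and 510, 562 and 336 FPKM in F1-HHcy, with its lowest value in the same library. Without F1-Control replicate 2, Kmt2d stayed called at 0.65 (adjusted p = 0.0591), whereas Kmt2a at 0.49 (adjusted p = 0.0910) was under the fold and Kmt2b at 0.32 (adjusted p = 0.224) lost its call. When each library was centred on genes of like length, an alternative chosen after seeing the data, Kmt2d (1.05, adjusted p = 0.0800) and Kmt2a (0.69, adjusted p = 0.0755) stayed called and Kmt2b (0.51, adjusted p = 0.128) did not. With no filter on low values all 3 calls were lost, at an unadjusted p of 0.0542 for Kmt2d, 0.0514 for Kmt2a and 0.0833 for Kmt2b. Of all tested genes, 716 of 13127 were called higher without F1-Control replicate 2. With no filter it was 1143 of 27626. The part of transcript length in these differences was not tested further.

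**Figure D2:**
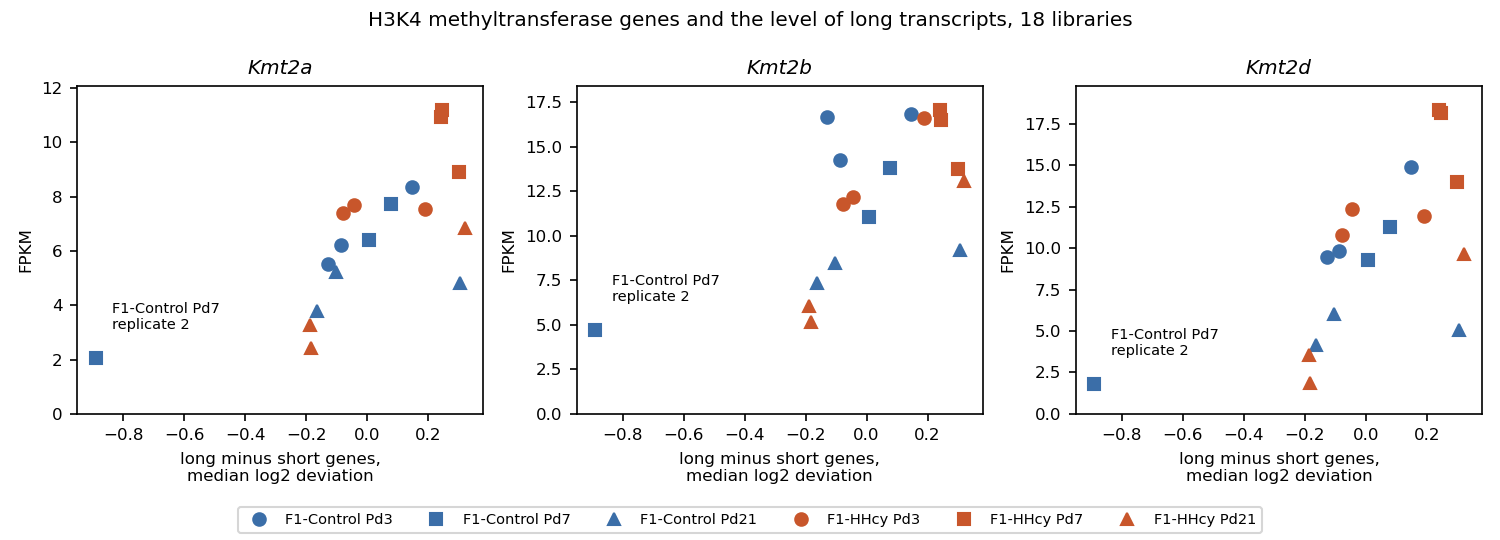
FPKM of Kmt2a, Kmt2b and Kmt2d (y axes, from 0) against the median log2 deviation of genes of at least 8 kb minus that of genes under 1.5 kb from their mean over the libraries of the same day (x axis), for 18 libraries. Colour gives the diet and shape the day; F1-Control Pd7 replicate 2, at -0.89 on the x axis, has 2.06, 4.71 and 1.81 FPKM.

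The polycomb genes changed less at Pd7. Ezh1 had 21.0, 17.1 and 19.4 FPKM in F1-Control and 23.9, 23.7 and 24.7 FPKM in F1-HHcy. All 3 F1-HHcy libraries of Ezh1 were higher and close together, with a log2 fold change of 0.32 (SE 0.13, 95% interval 0.02 to 0.62, adjusted p = 0.137 by limma) that was under the fold required for a call. Ezh2 had 13.6, 14.9 and 17.2 FPKM in F1-Control and 19.1, 17.0 and 20.6 FPKM in F1-HHcy. A single F1-HHcy library of Ezh2, replicate 2, fell within the control range, and the log2 fold change was 0.29 (SE 0.15, adjusted p = 0.194 by limma).

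The partner subunits overlapped between diets at Pd7. Eed had 19.3, 21.8 and 19.3 FPKM in F1-Control and 21.5, 19.0 and 20.8 FPKM in F1-HHcy, a log2 fold change of 0.02 (SE 0.13) that turned to -0.007 with median-ratio scaling. Suz12 had 19.1, 13.2 and 17.9 FPKM in F1-Control and 18.2, 16.0 and 19.8 FPKM in F1-HHcy (log2 fold change 0.11, SE 0.17). Again the lowest value was that of control replicate 2, without which the log2 fold change of Suz12 was -0.04.

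The H3K9 enzymes were higher on average in F1-HHcy at Pd7 but overlapped. Setdb1 had 24.3, 18.6 and 25.9 FPKM in F1-Control and 26.1, 24.9 and 28.7 FPKM in F1-HHcy (log2 fold change 0.22, SE 0.16, adjusted p = 0.362 by limma). Ehmt1 had 14.2, 10.6 and 15.0 FPKM in F1-Control and 14.8, 15.5 and 16.9 FPKM in F1-HHcy (0.24, SE 0.16, adjusted p = 0.318 by limma). Ehmt2 had 31.7, 21.2 and 27.4 FPKM in F1-Control and 32.0, 34.4 and 30.8 FPKM in F1-HHcy (0.28, SE 0.16, adjusted p = 0.259 by limma). All 3 had their lowest Pd7 value in control replicate 2. At this day the summed oocyte markers were 1889 to 2984 FPKM in F1-Control and 1026 to 1533 FPKM in F1-HHcy, and the summed theca markers were 216 to 449 FPKM and 1136 to 1195 FPKM. The part of these cell types in the members' levels was not tested.

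**Figure D3:**
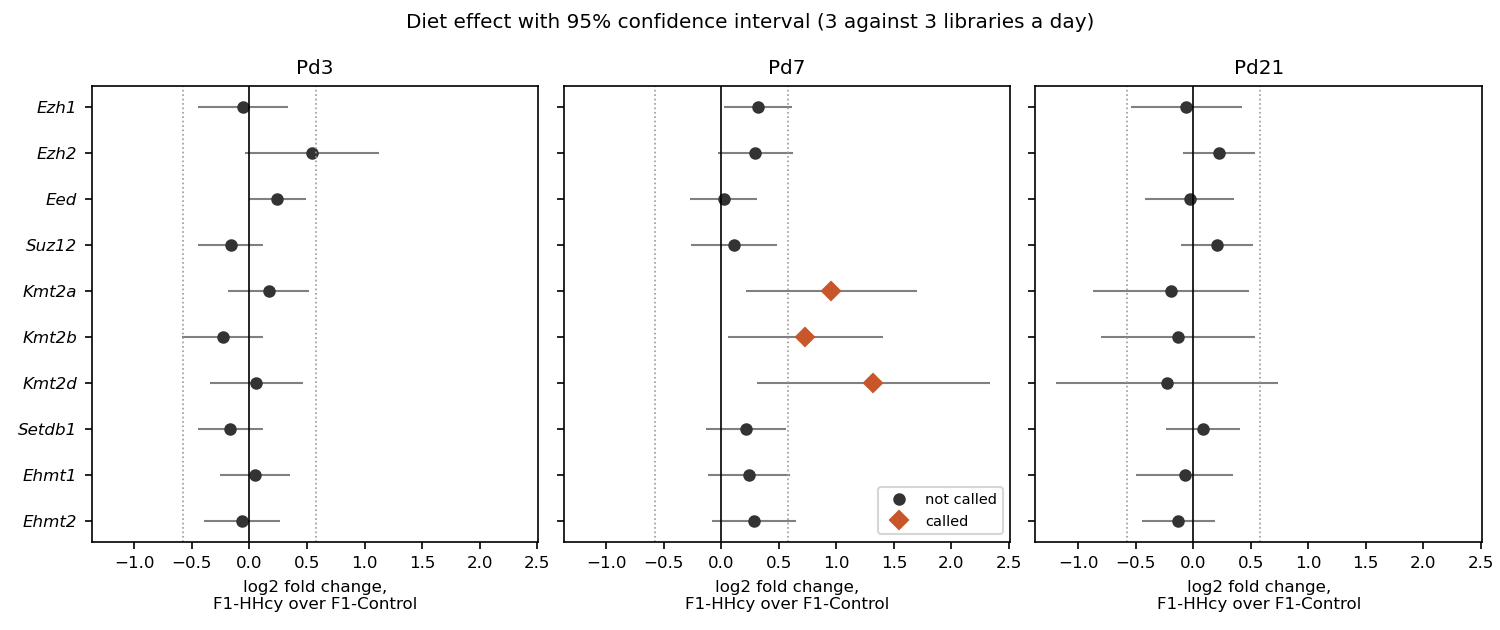
Log2 fold change of each of the 10 genes (F1-HHcy over F1-Control, x axis) at Pd3, Pd7 and Pd21, with 95% confidence intervals from limma on 3 against 3 libraries; dotted lines mark 0.58 in size and orange diamonds mark called genes. The only called points are Kmt2a (0.96), Kmt2b (0.73) and Kmt2d (1.32) at Pd7.

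At Pd21 no member was called higher (0.0824% of 13350 tested genes were) or lower (5.06% of tested genes were). None passed with the adjusted p (2.23% of tested genes did), and none had an unadjusted p under 0.05 (6.85% of tested genes did). The median log2 fold change was -0.07 for the members and -0.01 over all tested genes. Only Ezh2 separated the diets, upward, among 1.92% of tested genes wholly higher, and no member lay wholly lower (8.61% of tested genes did).

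Ezh2 at Pd21 had 16.7, 16.6 and 15.5 FPKM in F1-Control and 17.1, 19.6 and 21.1 FPKM in F1-HHcy. The lowest F1-HHcy library was close to the highest control, and the log2 fold change of 0.23 (SE 0.14, 95% interval -0.09 to 0.54, adjusted p = 0.9996 by limma) did not pass the test. Ezh1 had 17.5, 16.7 and 16.6 FPKM in F1-Control and 21.9, 11.7 and 16.5 FPKM in F1-HHcy. The controls lay between 16.6 and 17.5 FPKM while the F1-HHcy libraries spread to both sides (log2 fold change -0.06, SE 0.21). Suz12 had 18.9, 20.6 and 21.4 FPKM in F1-Control and 21.1, 25.9 and 23.9 FPKM in F1-HHcy (0.21, SE 0.14), and Eed overlapped at 16.8 to 21.2 FPKM and 16.6 to 23.1 FPKM (-0.03, SE 0.17).

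The H3K4 enzymes at Pd21 had similar means in both diets but a wide spread in F1-HHcy. Kmt2d had 4.15, 6.03 and 5.09 FPKM in F1-Control and 9.67, 1.84 and 3.53 FPKM in F1-HHcy. Kmt2a had 3.78, 5.21 and 4.83 FPKM in F1-Control and 6.84, 2.44 and 3.26 FPKM in F1-HHcy. Kmt2b had 7.36, 8.49 and 9.18 FPKM in F1-Control and 13.0, 5.18 and 6.06 FPKM in F1-HHcy. For each of the 3, F1-HHcy replicate 1 was above every control and replicates 2 and 3 below every control, so the group means (5.01 against 5.09 FPKM for Kmt2d) describe no library. The long-minus-short gene difference was 0.32 in F1-HHcy replicate 1, -0.18 in replicate 2 and -0.19 in replicate 3, and Malat1 was 69.2, 8.66 and 14.6 FPKM in the same libraries. In F1-Control replicates 1, 2 and 3 the difference was -0.16, -0.10 and 0.31, so that control replicate 3 was near F1-HHcy replicate 1 by this measure but held 5.09 FPKM of Kmt2d against 9.67 FPKM. Malat1 was 11.5, 35.1 and 16.0 FPKM in these controls. Without F1-HHcy replicate 1, Kmt2d was called lower (log2 fold change -0.75, adjusted p = 0.283), and without replicate 2 all 3 turned positive, at 0.20 for Kmt2d, 0.05 for Kmt2a and 0.10 for Kmt2b. The part of transcript length was not tested here either.

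The H3K9 enzymes overlapped between diets at Pd21. Setdb1 had 25.2, 24.7 and 24.5 FPKM in F1-Control and 30.5, 23.7 and 25.3 FPKM in F1-HHcy (0.08, SE 0.14), and Ehmt2 had 30.6, 29.6 and 29.8 FPKM in F1-Control and 31.6, 24.97 and 25.9 FPKM in F1-HHcy (-0.13, SE 0.14). F1-HHcy replicate 1 was the highest library for both, and for Ehmt2 replicates 2 and 3 lay below every control. Ehmt1 had 11.01, 10.6 and 14.4 FPKM in F1-Control and 13.8, 10.5 and 9.78 FPKM in F1-HHcy (-0.08, SE 0.18). Markers of oviduct and multiciliated epithelium summed to 87.5 to 537 FPKM in the controls and 4.54 to 8.93 FPKM in F1-HHcy at this day, and the part of such tissue in the members' levels was not tested.

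The next comparison followed the genes from Pd3 to Pd7, which share a batch, within each diet, in a single limma model of all 18 libraries (14607 genes tested), where a call required an adjusted p under 0.05 beside the same fold. No member was called in F1-Control (8.93% of tested genes were) or in F1-HHcy (5.06% of tested genes were). With the unadjusted p alone, 5 members passed in F1-Control (28.6% of tested genes did) and none in F1-HHcy (23.3% of tested genes did). In F1-Control, Ezh2 was 0.56 higher at Pd7 on the log2 scale (SE 0.19, adjusted p = 0.0697 by limma), and every Pd7 control lay above every Pd3 control. Eed also lay wholly higher in the Pd7 controls, and Suz12, Kmt2b and Setdb1 wholly lower. The share of all genes without overlap was not computed here. Suz12 had -0.39 (SE 0.14, adjusted p = 0.0778), Setdb1 -0.35 (SE 0.13, adjusted p = 0.102), Ehmt2 -0.36 (SE 0.15, adjusted p = 0.121) and Kmt2b -0.74 (SE 0.30, adjusted p = 0.119). In F1-HHcy the same 5 genes, chosen by their p in F1-Control, had 0.31 for Ezh2, -0.12 for Suz12, 0.03 for Setdb1, -0.02 for Ehmt2 and 0.22 for Kmt2b. The largest values in F1-HHcy were 0.48 for Kmt2d (SE 0.46, adjusted p = 0.572 by limma) and 0.40 for Kmt2a (SE 0.32, adjusted p = 0.486 by limma). Both genes lay wholly higher in the Pd7 libraries of F1-HHcy, while their values in F1-Control were -0.78 (SE 0.46) and -0.39 (SE 0.32). The members' median log2 fold change was -0.35 in F1-Control and 0.07 in F1-HHcy, beside -0.05 and -0.04 over all tested genes. Without F1-Control Pd7 replicate 2 the value of Kmt2b was -0.34 (adjusted p = 0.478), that of Setdb1 -0.21 (adjusted p = 0.356), that of Suz12 -0.24 and that of Ehmt2 -0.21, while that of Ezh2 was 0.57 (adjusted p = 0.138).

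Whether the diet effect itself differed between days was tested as an interaction in the same model. No member was called between Pd3 and Pd7 (0.411% of tested genes were), between Pd7 and Pd21 (3.87% of tested genes were) or between Pd3 and Pd21 (4.59% of tested genes were). With the unadjusted p alone, 1 member passed between Pd3 and Pd7 (13.8% of tested genes did), 2 between Pd7 and Pd21 (19.4% of tested genes did) and none between Pd3 and Pd21 (16.1% of tested genes did). Kmt2b was the gene between Pd3 and Pd7, where its diet effect was 0.96 greater at Pd7 (SE 0.43, adjusted p = 0.341 by limma). Kmt2a and Kmt2d were the genes between Pd7 and Pd21, with differences of -1.15 (SE 0.45, adjusted p = 0.177 by limma) and -1.55 (SE 0.65, adjusted p = 0.201 by limma). The adjusted p of both became 0.0402 without F1-HHcy Pd21 replicate 1. Without F1-Control Pd7 replicate 2 the differences were 0.55 for Kmt2b (adjusted p = 0.681), -0.69 for Kmt2a (adjusted p = 0.433) and -0.88 for Kmt2d (adjusted p = 0.488). Day and batch cannot be told apart in a contrast with Pd21.

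Levels at Pd21 are set beside Pd7 without a test for the same reason. In F1-HHcy the mean of Kmt2d was 16.8 FPKM at Pd7 and 5.01 FPKM at Pd21, that of Kmt2a 10.3 and 4.18 FPKM, and that of Kmt2b 15.8 and 8.10 FPKM, and none of these groups overlapped. Ezh1, Suz12 and Ehmt1 did not overlap between these days in F1-HHcy either. The share of all genes without overlap was not computed. In F1-Control the means were 7.47 and 5.09 FPKM for Kmt2d, 5.39 and 4.61 FPKM for Kmt2a and 9.87 and 8.34 FPKM for Kmt2b, with overlap. That overlap came from F1-Control Pd7 replicate 2, since for all 3 genes the other Pd7 controls lay above every Pd21 control. Ezh2 was nearly level, at 15.3 and 16.3 FPKM in F1-Control and 18.9 and 19.3 FPKM in F1-HHcy. Suz12 was 16.8 and 20.3 FPKM in F1-Control and 17.99 and 23.6 FPKM in F1-HHcy.

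EZH1 and EZH2 replace each other in the complex, so the ratio of their transcripts was taken within each library, where any scaling cancels. The Ezh2:Ezh1 ratio at Pd3 was 0.478, 0.370 and 0.458 in F1-Control and 1.09, 0.772 and 0.367 in F1-HHcy. F1-HHcy replicates 1 and 2 were above every control and replicate 3 was level with the lowest control (exact permutation test, 2-sided, p = 0.4, adjusted p = 0.8 over 6 tests). At Pd7 the ratio was 0.650, 0.873 and 0.890 in F1-Control and 0.801, 0.719 and 0.837 in F1-HHcy (exact permutation p = 0.9, adjusted p = 0.9). At Pd21 it was 0.956, 0.993 and 0.937 in F1-Control, and 0.782, 1.68 and 1.28 in F1-HHcy (exact permutation p = 0.4, adjusted p = 0.8). In F1-Control the geometric mean was 0.432 at Pd3 and 0.796 at Pd7, with no overlap between these groups. The other pair, Ehmt1:Ehmt2, held a narrower ratio of 0.358 to 0.549 over the 18 libraries (exact permutation p = 0.2, 0.9 and 0.8 at Pd3, Pd7 and Pd21). With 3 against 3 libraries the smallest p this test allows is 0.1.

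**Figure D4:**
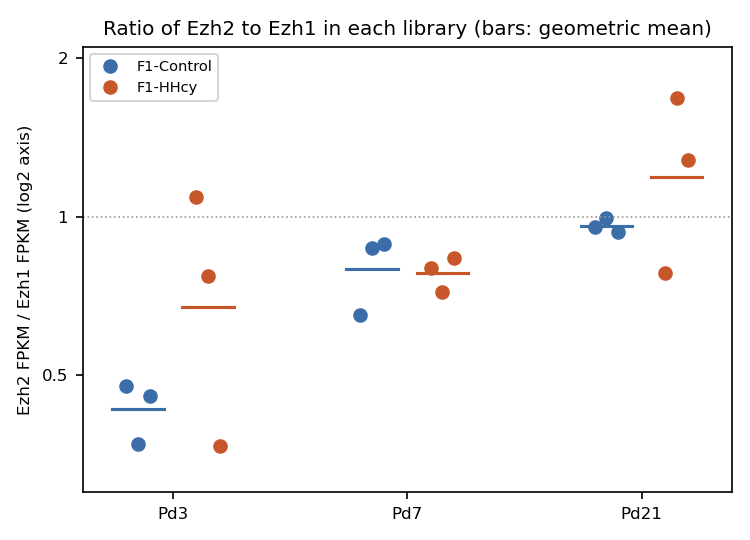
Ratio of Ezh2 to Ezh1 FPKM in each library (y axis, log2 scale) by day and diet (blue, F1-Control; orange, F1-HHcy); bars are geometric means of 3 libraries and the dotted line marks equal levels. The Pd3 controls lie at 0.370 to 0.478 and the Pd21 controls at 0.937 to 0.993, while the F1-HHcy libraries of both days spread more widely.

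The genes whose pattern over the 18 libraries was most like that of each EZH paralog were found by Pearson correlation of log2(FPKM + 1) among 14607 genes. For Ezh2 these were Gm10523 (r = 0.945), Aspm, a spindle gene of dividing cells (0.939), Cnpy4 (0.934), Birc3, an inhibitor of apoptosis (0.934), and Fastkd2, a mitochondrial RNA-binding gene (0.933). For Ezh1 they were Wdr24 (r = 0.933), Skiv2l (0.930), Pigo (0.927), Zfr2 (0.922) and Secisbp2 (0.919). The 18 points share days, batches and depth, so these values describe the libraries and carry no p.

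The wider set of histone methylation genes was followed with 11 further lists of 90 genes. At Pd3 no gene of these lists was called higher and 2 of 87 tested were called lower (2.30%, beside 4.74% of all tested genes). At Pd7 7 of 85 tested were called higher (8.24%), a share near the 9.06% of all tested genes, and 2 lower (2.35%, beside 7.35%). At Pd21 none was called higher and 1 lower (beside 5.06% of all tested genes lower). The 2 genes called lower at Pd3 and at Pd7 were Kdm1b and Pcgf5. Kdm1b, the oocyte demethylase of H3K4, was 90.7 ± 1.91 FPKM in F1-Control and 61.7 ± 24.3 FPKM in F1-HHcy at Pd3 (SD, n = 3), a log2 fold change of -0.62 (adjusted p = 0.199 by limma). At Pd7 it was 51.5 ± 5.58 and 25.5 ± 5.48 FPKM (-0.999, SE 0.17, adjusted p = 0.00824 by limma). Pcgf5, a subunit of variant polycomb repressive complex 1, had log2 fold changes of -0.86 at Pd3 (adjusted p = 0.101) and -0.83 at Pd7 (adjusted p = 0.0174). Both stayed called lower at Pd7 without F1-Control replicate 2, at -0.94 and -0.88. The summed oocyte markers were also lower in the F1-HHcy libraries at Pd7, where 10 of the 12 were called lower and 1 higher. At Pd3 the sum was higher, at 1646 to 2229 FPKM beside 1031 to 1360 FPKM in F1-Control. The markers were split at that day, with 4 called higher (Gdf9, Bmp15, Zp2 and Zp3) and 3 called lower (Dazl, Sohlh1 and Kit). The part of oocytes in the Kdm1b values was not tested.

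The 7 genes called higher at Pd7 were spread over 5 lists. Among other H3K4 methyltransferases, Setd1a (0.71, adjusted p = 0.112) and the catalytically inactive relative Kmt2e (0.70, adjusted p = 0.101) were called, that is 2 of 7 tested, with a list median of 0.49. Of the 9 methyltransferases for other lysines, Dot1l, which methylates H3K79 (0.70, adjusted p = 0.0960), and Kmt5c, which trimethylates H4K20 (0.63, adjusted p = 0.122), were called. The remaining 3 were the demethylase genes Kdm7a (0.70, adjusted p = 0.0823) and Kdm6b (0.76, adjusted p = 0.141) and the polycomb repressive complex 1 gene Phc3 (0.71, adjusted p = 0.0946). They were 1 of 9 H3K9 demethylases tested, 1 of 2 H3K27 demethylases and 1 of 18 subunits. None of the 7 passed with the adjusted p. Without F1-Control Pd7 replicate 2 none of them stayed called, with values from 0.32 to 0.39, and the median of the 85 genes went from 0.13 to 0.02. Over all tested genes, 716 of 13127 were called higher without that library, beside 1205 of 13299 with it. With centring on gene length 4 of the 85 were called higher, beside 1158 of 13299 tested genes. Of the 4, Setd1a (0.58) and Kmt5c (0.67) had been called before and Pcgf1 (0.58) and Ring1 (0.64) had not.

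**Figure D5:**
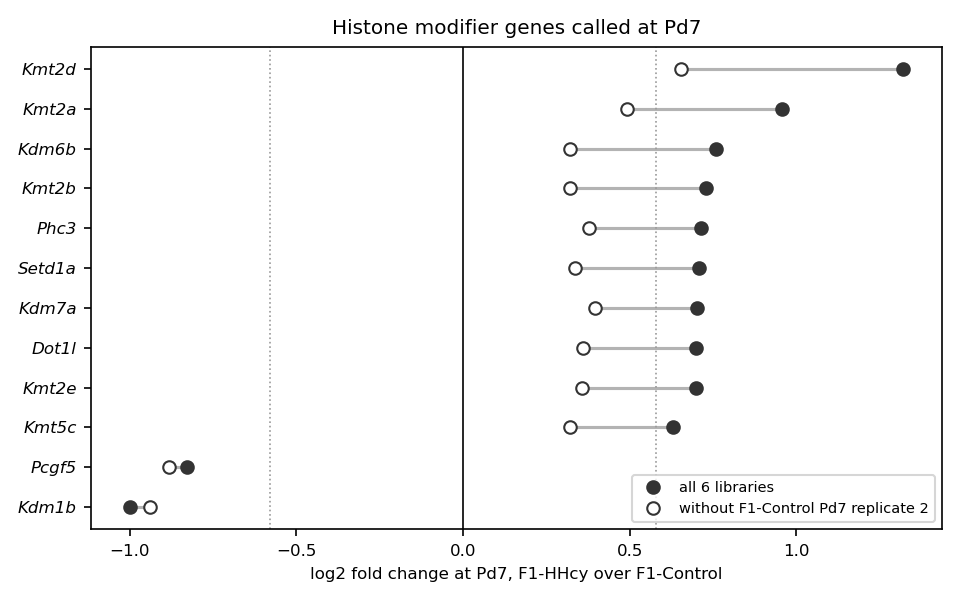
Log2 fold change at Pd7 (x axis, F1-HHcy over F1-Control) of the 12 histone methylation genes called with all 6 libraries (filled points) and the value without F1-Control replicate 2 (open points); dotted lines mark 0.58 in size. Without that library Kmt2d (0.65), Pcgf5 (-0.88) and Kdm1b (-0.94) keep a value past the line.

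In the lists closest to the members' own complexes, no gene was called at any day among the 7 tested accessory subunits of polycomb repressive complex 2, led by Rbbp7 at a mean of 204 FPKM over the 18 libraries. The same held for the 12 shared subunits of the KMT2 complexes, led by Dpy30 (71.7 FPKM), the 3 tested other H3K9 methyltransferases, led by Suv39h1 (13.0 FPKM), and the 9 H3K9 partners and readers, led by Trim28 (99.6 FPKM). Of the 5 genes listed under supply and clearance of S-adenosylmethionine, none was called. Mat2a, which makes it, had 56.2 ± 7.86 FPKM in F1-Control and 71.9 ± 3.04 FPKM in F1-HHcy at Pd3 (log2 fold change 0.36, adjusted p = 0.142 by limma, SD, n = 3), without overlap but under the fold. At Pd7 it had 70.8 and 73.2 FPKM. Cbx6, a polycomb repressive complex 1 reader of methylated H3K27, was the gene called lower at Pd21, with 32.2 ± 3.22 FPKM in F1-Control and 20.4 ± 4.43 FPKM in F1-HHcy (-0.65, SE 0.18, adjusted p = 0.169 by limma, SD, n = 3).

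The most abundant genes of the remaining lists were Rnf2, the ubiquitin ligase of polycomb repressive complex 1 (mean of 27.9 FPKM over the 18 libraries), Smyd2 (47.3 FPKM), Kmt5a, which monomethylates H4K20 (21.6 FPKM), Kdm1b (47.7 FPKM), the H3K9 demethylase gene Kdm3a (21.1 FPKM), the H3K27 demethylase gene Kdm6a (10.9 FPKM) and Mat2b, the regulatory partner of Mat2a (87.5 FPKM). Of these, Kdm1b was the gene called. Over the 18 libraries Kdm1b ranged from 20.1 to 92.2 FPKM, Kmt5a from 9.10 to 43.1, Rnf2 from 23.0 to 39.6 and Smyd2 from 36.8 to 56.8 FPKM.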

How the data were processed

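RNA from whole ovaries was sequenced as stranded poly-A libraries. The submitters' processing notes name FastQC 0.11.9, Trimmomatic 0.39, STAR 2.7.9a, featureCounts 2.0.1, DESeq2 1.36.0 and the build GRCm38 (mm10), with no order. The authors deposited one value per gene and library and the files name no unit. The values were read as FPKM because those of all 27294 genes above 0 in at least 3 libraries were whole multiples of a step that fits length and depth, within 0.02 fragments. The length of each gene was searched for this fit, and 0.02 was the limit for accepting it. Genes with very low values or values in few libraries pass such a search easily, so for them it says little. Recovered totals were 33629172 to 39398054 fragments per library.

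The 10 members, the 11 lists and the marker lists were chosen with earlier results of these data known. From the deposited FPKM values log2(FPKM + 1) was taken, and every gene reaching 1 FPKM in 3 or more libraries was fitted with limma 3.58.1 in R 4.3.3 with a mean-variance trend, for each day on its 6 libraries, and for Pd3 against Pd7 and for differences of the diet effect in 1 model of the 18 libraries. Ratios were compared by exact permutation tests in scipy 1.17.1. Calls between diets on a day followed the study's criterion (unadjusted p under 0.05 and log2 fold change above 0.58), whereas calls between days and of interactions required the adjusted p under 0.05 with that fold. All members, the called and the most abundant gene of each list, and the 5 genes most like each EZH gene were named. Gene lengths are those the values imply. The fits were tested on simulated data. No 2 libraries of a group agreed within sampling noise. Alternatives were another pseudocount (0.1), no filter, median-ratio scaling, scaling without mitochondrial and hemoglobin genes, limma-voom on recovered fragments, a replicate block, all 18 libraries in 1 model, each library left out and, chosen after seeing the data, centring on gene length.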

Additional observations from a re-analysis of the deposited data

Results flagged for a closer look

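In the interaction test of the 18-library model, 3 members had an unadjusted p under 0.05 with a log2 difference above 0.58 in size. By the unadjusted p alone, 1 of the 10 passed between Pd3 and Pd7 (13.8% of tested genes did). Between Pd7 and Pd21 it was 2 of the 10 (19.4% of tested genes did), so the members were near the shares over all genes. The diet effect of Kmt2b was 0.96 greater at Pd7 than at Pd3 (adjusted p = 0.341 by limma). From Pd7 to Pd21 the diet effect of Kmt2a differed by -1.15 (adjusted p = 0.177 by limma) and that of Kmt2d by -1.55 (adjusted p = 0.201 by limma). None passed with the adjusted p. All 3 values moved toward 0 without F1-Control Pd7 replicate 2, to 0.55, -0.69 and -0.88 (adjusted p of 0.681, 0.433 and 0.488), and with centring on gene length they were 0.74, -0.85 and -1.25. Day and batch cannot be told apart for Kmt2a and Kmt2d, and the part of transcript length in these differences was not tested.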

How the results depend on the processing

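With 3 libraries a group, the number of libraries and not the depth limits these comparisons. Calls at Pd7 went from 3 higher to 0 with no filter on low values and to 0 with the adjusted p. They ranged from 1 to 3 with a library left out, the lowest being without F1-Control replicate 2. Of all tested genes, 1205 of 13299 were called higher at Pd7, and 1143 of 27626 with no filter. With the adjusted p it was 750 of 13299, and without F1-Control replicate 2 it was 716 of 13127. Kmt2b also lost its call without any 1 of the F1-HHcy Pd7 libraries. Leaving out a library gave 0 to 1 called higher at Pd3 (Ezh2) and 0 to 1 lower at Pd21 (Kmt2d). It gave 0 to 1 lower from Pd3 to Pd7 in F1-Control (Kmt2b, without Pd7 replicate 1, beside 995 of 14565 tested genes). Between Pd7 and Pd21 it gave 0 to 2 lower (Kmt2a and Kmt2d, without F1-HHcy Pd21 replicate 1, beside 875 of 14569 tested genes). Centring on gene length gave 1 called higher from Pd3 to Pd7 in F1-Control (Ezh2, 0.69, adjusted p = 0.0364), beside 820 of 14607 tested genes. Of the 11 further lists, 2 of 87 tested genes were called higher and 5 lower at Pd3 without F1-HHcy replicate 3. Over all genes it was 920 higher and 1028 lower of 13049 tested. At Pd21 without F1-HHcy replicate 1, 3 of 85 list genes were called lower, beside 903 of 13180 tested genes.

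Values near 0 changed sign. With median-ratio scaling Eed was -0.0070 at Pd7 and 0.024 at Pd21 (0.021 with gene-length centring), and Ehmt2 from Pd3 to Pd7 in F1-HHcy was 0.019 (0.013 with centring). With a library left out, diet effects ranged at Pd3 from -0.21 to 0.089 for Ezh1, -0.049 to 0.25 for Kmt2d, -0.017 to 0.16 for Ehmt1 and -0.18 to 0.035 for Ehmt2. At Pd7 they ranged from -0.017 to 0.075 for Eed and -0.045 to 0.20 for Suz12. At Pd21 they ranged from -0.27 to 0.16 for Ezh1, -0.16 to 0.062 for Eed, -0.54 to 0.052 for Kmt2a, -0.49 to 0.097 for Kmt2b, -0.75 to 0.20 for Kmt2d, -0.017 to 0.16 for Setdb1 and -0.21 to 0.053 for Ehmt1. From Pd3 to Pd7 in F1-HHcy the ranges were -0.021 to 0.078 for Setdb1 and -0.11 to 0.097 for Ehmt2, and between Pd3 and Pd21 they were -0.26 to 0.33 for Kmt2b and -0.81 to 0.14 for Kmt2d. The log2 difference of Ezh2:Ezh1 at Pd7 ranged from -0.17 to 0.058, and that of Ehmt1:Ehmt2 from -0.12 to 0.042 at Pd7 and -0.021 to 0.20 at Pd21. The cause of these changes was not tested.

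Same-numbered libraries of the diets did not deviate together (r of -0.338 to 0.0872 over the 9 pairs), so the replicate numbers were not taken as pairs. With the replicate number as a block no call by the study's criterion changed, and the adjusted p at Pd7 was 0.0361 for Kmt2d, 0.0435 for Kmt2a and 0.0837 for Kmt2b.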
